A study of Caenorhabditis elegans with 2 samples.

Results

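The 3′ ends described here are those of homeobox genes of Caenorhabditis elegans, the genes of the homeodomain transcription factors. The members were the 63 protein-coding genes whose symbol begins with ceh- and 8 further genes, lin-39, mab-5, egl-5, unc-86, unc-30, mec-3, ttx-3 and unc-4. An interval of the deposited list was counted for a gene if at least 10 nt of it lay on that gene's stop codon and 3′ untranslated region (3′ UTR), or if it began no more than 60 nt ahead of the last base of that stop codon. This rule took 8 of the 4818 deposited intervals, in 7 of the 71 genes. Membership rests on the gene symbol, and 22 of the 71 genes were in none of the homeodomain classes listed for this description.

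A homeodomain is a helix-turn-helix fold that binds DNA, and in this worm proteins with it set positional identity along the body and the identity of single neuron and muscle types. Hox genes act along the head-to-tail axis, POU, LIM and paired-like genes are best known as selectors of neuron types, NK and sine oculis genes act among others in the pharynx and head, and CUT genes carry a cut domain beside the homeodomain. The 3′ UTR, the untranslated stretch ahead of the poly(A) tail, is where microRNAs and RNA-binding proteins act on an mRNA, and its length depends on where the transcript is cleaved.

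The study mapped forms of worm 3′ UTRs by sequencing cloned RACE (rapid amplification of cDNA ends) products. There was 1 group in use: N2, the laboratory wild-type strain, grown with all developmental stages mixed, with no mutation or treatment. RNA of whole worms was copied into cDNA from its poly(A) tails, each target was amplified with its own forward primer and cloned, and the products of 6432 minipools were read by pyrosequencing. A second run of single-colony products was labelled as well, with 49152 barcoded amplicons and 5952 minipools without barcodes, and no separate list of it was analysed here.

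The list holds positions only, with neither read counts, strand nor gene names, so the depth behind an interval is unknown and no replicate error exists for any value. The list of genes with a forward primer was not given in the sources used here. A gene without an interval may therefore have been untargeted, unexpressed, lost in cloning or left unread, and these cannot be told apart. Whole mixed-stage worms do not show in which cells a transcript was made. Ranges in brackets after shares are exact Clopper-Pearson 95% intervals, which cover counting error only, and no test between groups of genes was made.

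Interval coordinates keep the numbering of the file, and its genome build was not given in the sources used here. To compare them with the annotation (Ensembl release 115, assembly WBcel235), each interval was moved by a local shift estimated from other genes within 0.5 Mb of it on either side, or within 1 Mb for the 3 intervals of ceh-41 and ceh-21, where fewer ends were at hand. The shift was 0 nt at ceh-93, 4 nt at ceh-41 and ceh-21, 18 nt at ceh-19, 22 nt at ceh-32, 26 nt at ceh-22 and 87 nt at ceh-16. Estimated from stop codons in place of transcript ends, it differed by at most 3.5 nt at the 8 intervals. Both estimates rest on the same intervals, so this difference is not the whole error. The offsets used lay at a median of 3 nt (ceh-22) to 7 nt (ceh-16) from their strand's median. At ceh-93 this was 6.5 nt, with only 5 plus-strand and 7 minus-strand offsets. Distances between an interval and the annotation thus carry an error of a few nt or more, whereas interval lengths carry none from this step.

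Few homeobox genes had an interval. The 7 genes are 9.86% of 71 (4.06 to 19.3), whereas 21.4% of all 19653 protein-coding genes compared had one by the same rule. In 5 homeobox genes, 7.04% (2.33 to 15.7), an interval began within 60 nt of the gene's own stop codon (an own interval), against 16.6% of all genes. The size of this difference depended on the settings: with a limit of 30 nt the shares were 5.63% (4 genes) and 7.60%, and with no shift of the numbering they were 7.04% and 9.88%. These 5 were ceh-22, ceh-32, ceh-93, ceh-41 and ceh-21. The intervals at the other 2, ceh-16 and ceh-19, began at the stop codon of a gene on the opposite strand.

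ceh-22, an NK-2 type gene of pharyngeal muscle (WBGene00000445), had an interval of 163 nt on chromosome V (10675340 to 10675502). It began 26 nt before the last base of the stop codon and reached 136 nt beyond it. The annotation gives ceh-22 4 transcript ends, 1 at the stop codon itself and the others 190, 252 and 377 nt after it. Relative to the last 3, the interval ended at -54, -116 and -241 nt, where a negative distance lies upstream, so it stopped at none of them. It was the shortest of the 5 own intervals after the stop codon, and 58.9% of the 3250 other genes with an own interval reached further.

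ceh-32, a gene of the sine oculis class that acts in head development (WBGene00000453), had an interval of 360 nt on the same chromosome (11701931 to 11702290). It began 33 nt before the last base of the stop codon and covered 326 nt after it. Its annotated 3′ UTR is a single exon of 515 nt with 1 end, and the interval stopped 189 nt before that end. It thus covered 63.5% of the annotated stop codon and 3′ UTR. Of the other genes, 10.2% reached further past the stop codon, and 7.38% ended further upstream of the nearest annotated end.

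ceh-93, a homeobox gene near the left end of the X chromosome (WBGene00019864), had an interval of 291 nt (X, 384259 to 384549). It began 27 nt before the last base of the stop codon and reached 263 nt past it. The annotated 3′ UTR is only 137 nt long, so the interval covered all of it and ran 126 nt further. Of the 5 own intervals, that of ceh-93 alone passed the last annotated end, and no 3′ end of another protein-coding gene lay under it. Of the other genes, 5.69% had an end further downstream of the annotation than this.

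ceh-41 and ceh-21 are CUT-class genes of the ONECUT type that lie next to each other on the same strand of the X chromosome, with 103 nt between their annotated gene bounds. Both had intervals. ceh-39 is another ONECUT gene and one of the X-linked signals by which the embryo counts its X chromosomes. It lies 1137 nt from ceh-21 on the same strand, with 1 other protein-coding gene between them. ceh-39 had no interval, and the nearest one lay 3804 nt from its annotated end. The other 3 genes listed as CUT among the members, ceh-38, ceh-48 and ceh-49, had none either. This leaves 2 of 6 (33.3%, 4.33 to 77.7), a range that holds the 21.4% of all genes.

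ceh-41 (WBGene00000462) was the only homeobox gene with 2 intervals. The first was 291 nt long (X, 1846891 to 1847181), began 28 nt before the last base of the stop codon and stopped 262 nt beyond it. The second was 140 nt long (X, 1846595 to 1846734) and ran from 419 to 558 nt after the stop codon. The annotated 3′ UTR is a single exon of 549 nt, so the first interval stopped 287 nt before the annotated end and the second ended 9 nt past it. Between them lay 156 nt that no interval covered, and the 3′ edges lay 296 nt apart. The second interval did not begin at a stop codon, so whether it is the far part of a long product or a product of its own cannot be told apart. Of all genes with an interval, 2.02% had more than 1 end, and the count here was 1 of 7 homeobox genes (14.3%, 0.361 to 57.9).

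ceh-21 (WBGene00000444) had the longest interval of any member, 443 nt (X, 1849624 to 1850066). It began 19 nt before the last base of the stop codon and ran for 423 nt beyond it, which 2.98% of the other genes exceeded. The annotated transcript goes on much further, to 1272 nt of genomic distance after the stop codon, and has an intron in its 3′ UTR. The interval stopped within the first of its 2 3′ UTR exons, before the intron and 849 nt short of the annotated end. A share of 0.862% of the other genes had an end further upstream of the nearest annotated one.

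**Figure D1:**
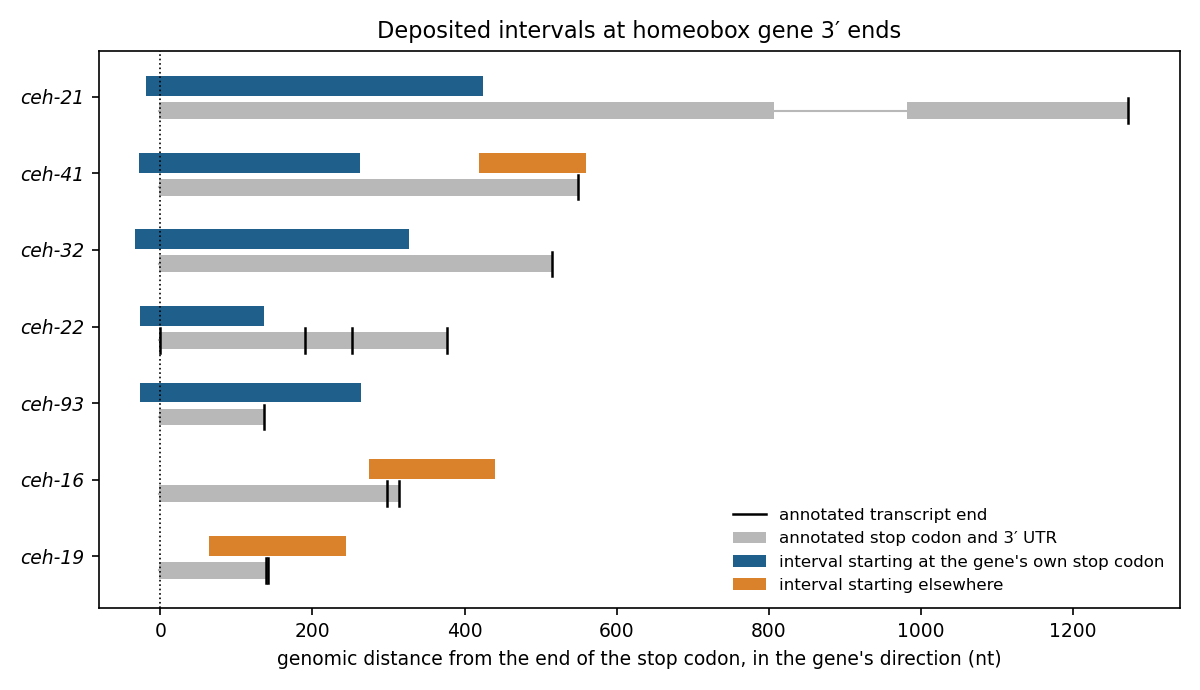
Intervals (upper bars) and the annotated stop codon and 3′ UTR (grey bars, with a thin line for an intron) of the 7 homeobox genes with an interval, against genomic distance in nt from the end of the stop codon; black ticks are annotated transcript ends. Blue intervals begin just before the gene's own stop codon, and orange ones elsewhere; the blue bars end between 136 nt (ceh-22) and 423 nt (ceh-21), and of these only that of ceh-93 passes its last tick.

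The intervals at ceh-16 and ceh-19 lay where 2 genes end towards each other. ceh-16 is the worm's engrailed gene, which acts in the seam cells of the epidermis, and its stop codon lies 405 nt from that of polk-1, a DNA polymerase kappa gene on the opposite strand. The interval (III, 8626187 to 8626352, 166 nt) began 34 nt before the end of the polk-1 stop codon and ended 131 nt after it, 14 nt beyond the nearest annotated polk-1 end. It covered 134 nt of the stop codon and 3′ UTR of polk-1 and only 41 nt of those of ceh-16, the last 12.9% of them.

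ceh-19, a gene of pharyngeal motor neurons, ends towards mcm-3AP, with 217 nt between their stop codons. The interval (IV, 7953381 to 7953560, 180 nt) began 26 nt before the end of the mcm-3AP stop codon and ended 153 nt after it, 30 nt beyond its annotated end. It covered 126 nt of the stop codon and 3′ UTR of mcm-3AP and 79 nt, 54.5%, of those of ceh-19. The strand column of the file holds the same sign throughout and assigns neither interval, and both began where an own interval of the partner gene would begin. Such sharing was common in the file, in which 498 of the 3792 intervals that met the rule for any gene (13.1%, 12.1 to 14.2) met it for more than 1.

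**Figure D2:**
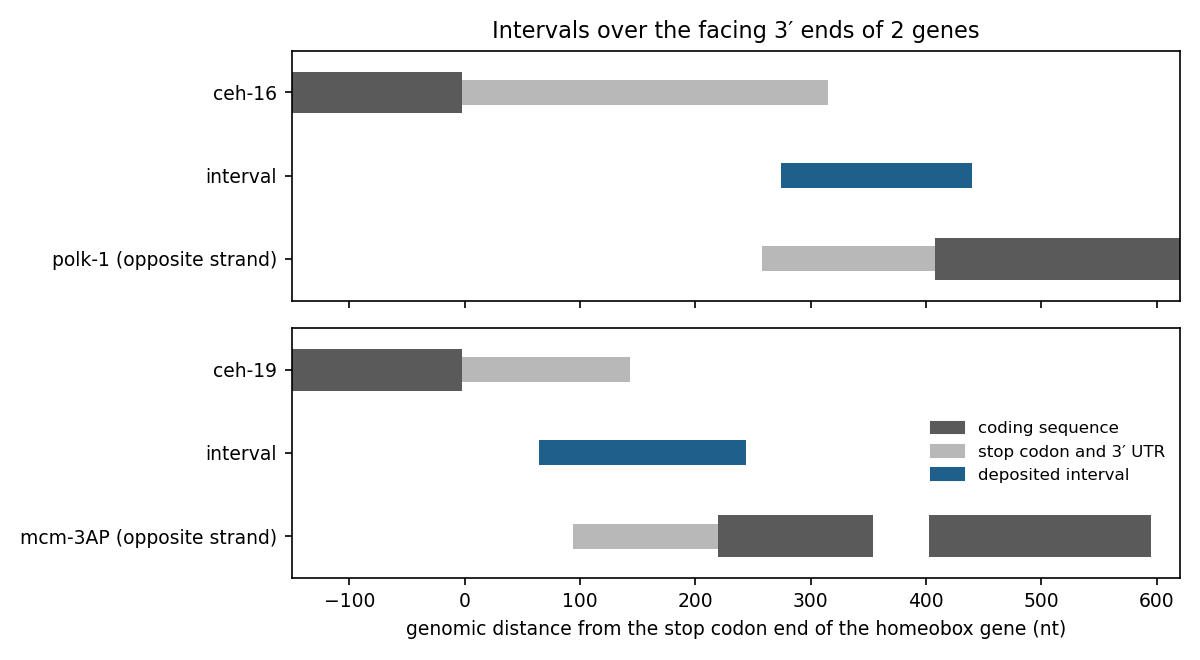
The intervals at ceh-16 and ceh-19 (blue) with the coding sequence (dark grey) and the stop codon and 3′ UTR (light grey) of the homeobox gene and of the gene facing it, against genomic distance in nt from the homeobox gene's stop codon. In both panels the right edge of the interval lies just inside the coding sequence of the facing gene, 34 nt ahead of the last base of the polk-1 stop codon and 26 nt ahead of that of mcm-3AP.

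Among the 5 genes with an own interval, the 5′ edges lay from 19 to 33 nt ahead of the stop codon's last base (median 27 nt). The median of the 3250 other genes was 32 nt. An own interval had by definition to begin within 60 nt, so the rule itself kept these edges close together. The 3′ edges were under no such limit and were spread widely. The length after the stop codon was 136 nt in ceh-22, 262 nt in ceh-41, 263 nt in ceh-93, 326 nt in ceh-32 and 423 nt in ceh-21, with a median of 263 nt. The median of the other genes was 157 nt, and the middle 50% lay from 109 to 237.75 nt. Of the 5, ceh-22 lay within that range, and the other 4 lay above it.

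None of these 5 own intervals ended within 20 nt of an annotated end of its gene (0 of 5, which allows a share of up to 52.2%). Of the 3255 genes with an own interval, 60.4% had such an end. Of the homeobox own intervals 4 stopped upstream, by 54 to 849 nt, and that of ceh-93 stopped downstream. With the depth unknown, the edge of an interval is not shown to be the end of a cloned product. The second interval of ceh-41 did end near the annotated one, but it was not counted because it did not begin at the stop codon. The 4 genes that stopped upstream have long annotated 3′ UTRs, with the last end 377 to 1272 nt after the stop codon. Of 895 other genes with an own interval and more than 300 nt to the last annotated end, 36.8% (33.6 to 40.01) ended within 20 nt of an annotated end and 50.5% (47.2 to 53.8) further upstream.

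**Figure D3:**
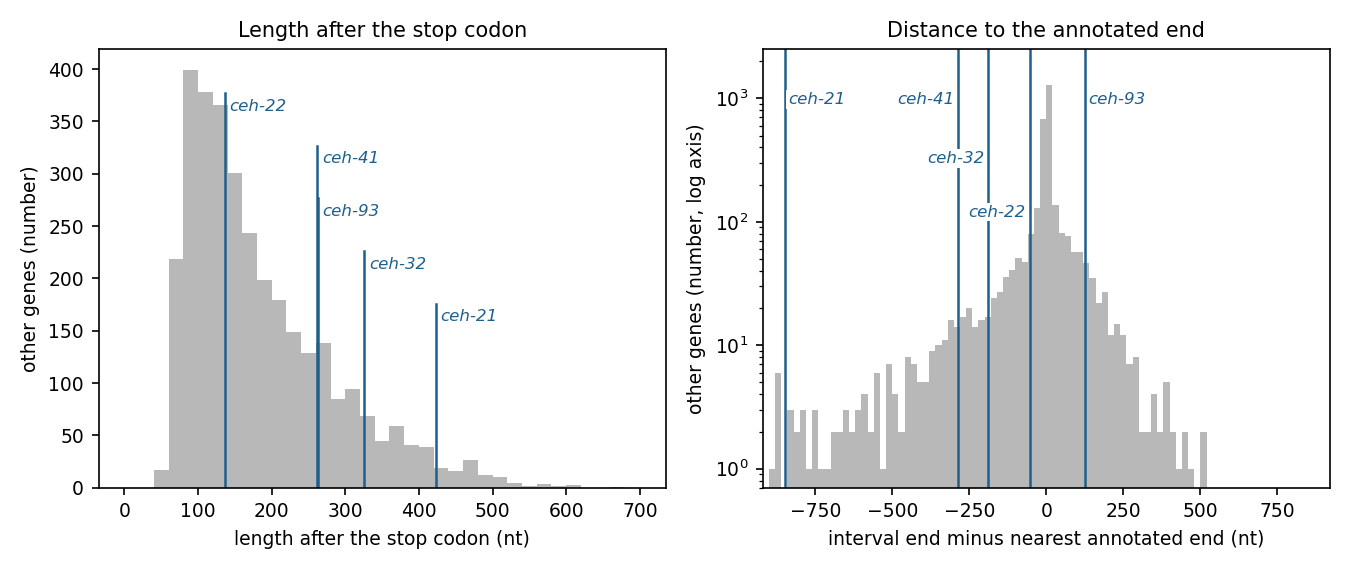
Left, length after the stop codon (nt) of the longest own interval of 3250 other genes (grey histogram) with the 5 homeobox genes as blue lines, 4 of which lie above the upper quartile of 237.75 nt. Right, distance in nt from the interval end to the nearest annotated transcript end on a log count axis, where negative values lie upstream; 21 other genes beyond 900 nt are not drawn, and the homeobox lines lie at -849, -287, -189, -54 and 126 nt.

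The other 64 homeobox genes had no interval at their 3′ end. None of the 4 Hox genes in the list had one (0 of 4, which allows up to 60.2%, against 21.4% of all genes). These are lin-39, which patterns the mid-body, ceh-13, the worm's labial gene, mab-5 of the posterior body and egl-5 of the tail. The nearest interval lay 9875 nt from the annotated end of lin-39, 9434 nt from that of ceh-13, 1923 nt from that of mab-5 and 7397 nt from that of egl-5. Of the 20 genes nearest to each, 10 had an interval at lin-39, 6 at ceh-13 and 7 each at mab-5 and egl-5. Why the 4 Hox genes had none was not tested.

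In 4 further classes, POU, LIM, paired-like and PBC, no gene had an interval, though the exact upper limits of 30.8% to 70.8% all lie above the 21.4% of all genes. No interval lay at the 3′ end of the POU genes unc-86, ceh-6 and ceh-18, or of the LIM genes mec-3, which specifies touch receptor neurons, ttx-3 of the AIY interneuron and ceh-14. The 10 paired-like genes, among them unc-30 of the GABA motor neurons, unc-4 of motor neurons, ceh-10, ceh-36 and ceh-37, had none (0 of 10, which allows up to 30.8%). The PBC genes ceh-20, ceh-40 and ceh-60, relatives of the Hox cofactor Pbx, had none of 3. In the sine oculis class ceh-32 stood against ceh-33 and ceh-34 without an interval. Of the 17 NK and other ANTP genes, ceh-22 alone had an own interval, and ceh-43, the Distal-less relative, had none. Each class is small, and the intervals on its share are wide.

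**Figure D4:**
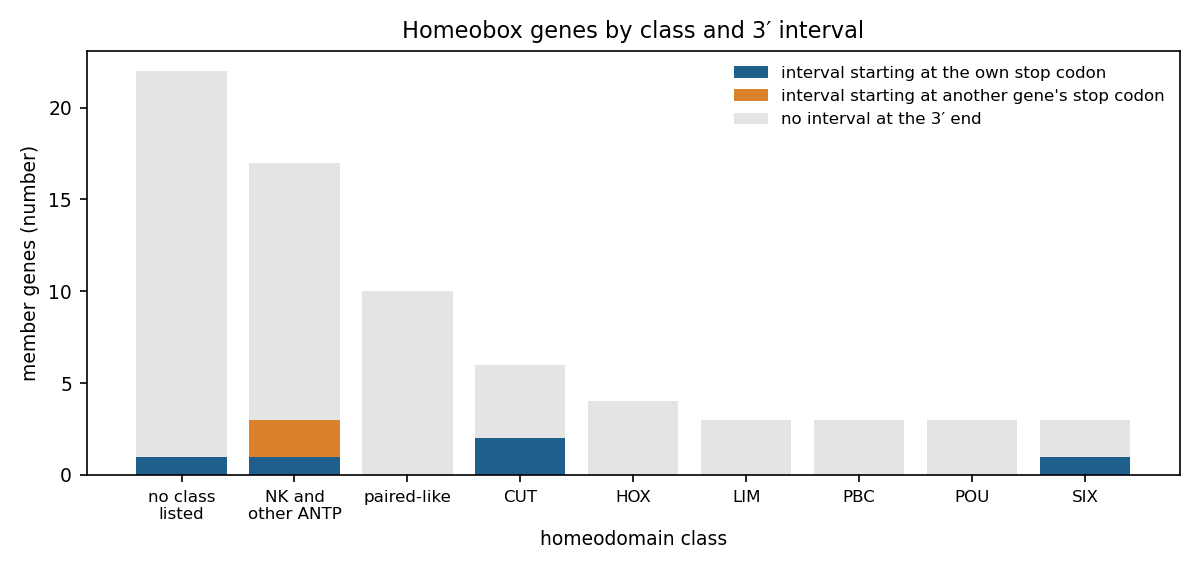
Number of homeobox genes in each class of homeodomain, divided into those with an interval at the own stop codon (blue), with an interval that began at another gene's stop codon (orange) and without an interval (light grey). The CUT class holds 2 blue genes of 6, and the HOX, LIM, PBC, POU and paired-like bars hold none.

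By chromosome, homeobox genes had an interval in 3 of 19 cases on X (15.8%, 3.38 to 39.6), where 21.2% of all genes had one. On chromosome V the count was 2 of 12 (16.7%, 2.09 to 48.4), slightly above the 14.8% of all genes there. It was 1 of 6 on IV (16.7% against 20.8%), 1 of 12 on III (8.33% against 29.02%), 0 of 14 on II (against 21.2%) and 0 of 8 on I (against 26.1%). The exact upper limits on II and I were 23.2% and 36.9%. The single genes on IV and III were ceh-19 and ceh-16, neither of which had an own interval. Intervals at the own stop codon were found on X in 3 of 19 genes (15.8%, 3.38 to 39.6) and on the autosomes in 2 of 52 (3.85%, 0.469 to 13.2). The share of all genes was 16.6% over all chromosomes together, and it was not computed for X and the autosomes apart. Of the 3 genes on X, ceh-41 and ceh-21 are neighbours.

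A 3′ UTR was annotated in 68 of the 71 homeobox genes (95.8%), against 84.1% of the other genes, and the 3 without one were ceh-81, ceh-54 and ceh-90. Of the 68, 5 had an own interval (7.35%, 2.43 to 16.3), against 19.2% of the other genes with a 3′ UTR. The shortest interval of the file measured 96 nt, so an interval that began at the usual place before the stop codon had to reach about 63 nt past it. Own intervals that began further ahead could reach less far, and the lowest value in the other genes was 40 nt. An end nearer than 63 nt thus did not bar a listing. Of these 68, the last annotated ends of 4 genes (5.88%, 1.63 to 14.4) lay nearer than 63 nt, against 19.8% of the other genes with a 3′ UTR. The 4 were ceh-33 (44 nt), ceh-7 (53 nt), ceh-12 (54 nt) and ceh-99 (56 nt). More than 1 annotated transcript end was given for 21 of the 71 (29.6%, 19.3 to 41.6), and for 4896 of the 19582 other genes. Over the 68 genes the median distance from stop codon to last annotated end was 192.5 nt, and over the other genes with a 3′ UTR it was 133 nt.

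The counts were then divided by the length of the annotated 3′ UTR. Of 46 genes with a 3′ UTR of at most 300 nt, only ceh-93 had an interval at its own stop codon (2.17%, 0.0550 to 11.5), whereas 17.7% (17.04 to 18.4) of other such genes did. Of 22 genes with more than 300 nt, 4 had one (18.2%, 5.19 to 40.3), against 24.5% (23.2 to 25.98) of other such genes. Above 500 nt the counts were 3 of 10 homeobox genes (30%, 6.67 to 65.2) and 22.3% (20.4 to 24.2) of other genes. The 3 were ceh-32 (515 nt, just above the limit), ceh-41 (549 nt) and ceh-21 (1272 nt), and so wide a range gives no order. The homeobox genes without an own interval included some with long annotated 3′ UTRs, such as ceh-88 (1738 nt of genomic distance), ceh-18 (852 nt), ceh-14 (847 nt) and egl-5 (801 nt). The limits of 300 and 500 nt were chosen after the values were seen.

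The surroundings of the homeobox genes were as filled as those of other genes by the median. Of the 20 protein-coding genes nearest to each, a median of 4 had an interval, with an interquartile range of 2 to 6, and both values were the same for the other genes. For the 64 genes without an interval, the nearest one lay at a median of 9654.5 nt from the last annotated end, and for other genes without one at 8975 nt. The nearest misses were those of ceh-9, with an interval 103 nt past its end, unc-4 (350 nt), ceh-91 (560 nt) and ceh-57 (582 nt). Those near ceh-9, unc-4 and ceh-57 began at the stop codon of an opposite-strand gene and ended within 7 nt of that gene's annotated end. The intervals taken with the smallest overlap were those of ceh-16 (41 nt) and ceh-19 (79 nt).

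No interval lay on coding sequence of a homeobox gene away from its 3′ end (0 of 71, which allows up to 5.06%), and 3.42% of the other genes (3.17 to 3.68) had one.

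Of 32 further homeobox and LIM cofactor genes with other names, 31 lay in the compared range and 2 had an interval (6.45%, 0.791 to 21.4). unc-39, a sine oculis type gene of mesoderm and neurons, had an interval of 106 nt (V, 14375745 to 14375850) that ended 71 nt after its stop codon and 11 nt before the annotated end. unc-62, a Meis-type partner of the Hox and PBC proteins, had one of 124 nt (V, 4510990 to 4511113) that ended 8 nt past the annotated end and did not begin at the stop codon. The Hox genes nob-1 and php-3 and the LIM genes lin-11, lim-4, lim-6 and lim-7 had none. Together with the members, 9 of 102 genes had an interval (8.82%, 4.11 to 16.1). The share of all genes was 21.4%. An own interval was found in 1 of the 31 (3.23%, 0.0816 to 16.7) and in 6 of the 102 (5.88%, 2.19 to 12.4), against 16.6% of all genes.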

How the data were processed

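The data are 1 list of 4818 genomic intervals in 6 columns, recorded for the pooled minipool run. The authors' deposited start and end columns are positions in nt. The score column, as deposited, holds 0 and the strand column a plus sign throughout, and neither was used. The assembly of reads, the aligner, any filter and the build were not given in the sources used here.

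Genes, stop codons and transcript ends came from Ensembl release 115 (WBcel235). The shift of each interval was the mean of the 2 strands' median offsets between interval 3′ edges and transcript ends, over intervals within 0.5 Mb, doubled until each strand gave 5 offsets, with homeobox genes left out of the annotation and the interval itself left out. Offsets up to 250 nt were searched and those within 25 nt of the commonest were kept. Past 19.25 Mb of chromosome V the shift was 4610 nt in a search of up to 6000 nt, and 49 intervals and 320 genes there, none a member, were left out. Every interval that met the rule was counted for each gene it met it for. Ends at most 20 nt apart were joined, and for each gene the own interval reaching furthest was used. Distances are genomic. The functions were tested on simulated data. Python 3.11.15, numpy 2.4.6, scipy 1.17.1 and matplotlib 3.10.9 were used. Members, classes and lists were chosen with earlier results of these data known. Each member with an interval is named, and 1 symbol of the class list (ceh-44) matched no gene. No genome sequence was used, so the planned count of poly(A) signals was not run.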

Additional observations from a re-analysis of the deposited data

How the results depend on the processing

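The counts, medians and distances over homeobox genes were recomputed with overlaps of 1 and 50 nt, edge limits of 30 and 120 nt, shift windows halved and tripled, shifts from stop codons, no shift, other joining and end distances the other homeobox genes added, and 2 alternatives chosen after seeing the data, 56 values in all. None of the 56 left the range of 1.5 times a count or 10 nt of a median. Some of them could not change, since the values of own intervals do not depend on the overlap. The range is also wide, and a fall from 7 to 5 genes stayed within it. The genes with an interval numbered 6 at 50 nt, where ceh-16 dropped out, 9 of 102 with the other genes added, and 5 when a shared interval went to 1 gene. Genes with an own interval numbered 4 at the edge limit of 30 nt, where ceh-32 dropped out. The same 7 and the same 5 genes were found with no shift. Of 78 values for single genes 4 moved by more than 20 nt, all with no shift. For ceh-22 the length after the stop codon was then 110 nt and the distance from the annotated end -80 nt, and for ceh-32 they were 348 and -167 nt. Over all genes the number with an own interval was 1493 (7.60%) at the edge limit of 30 nt and 1941 (9.88%) with no shift, against 3255 (16.6%), so the homeobox share of 5.63% and 7.04% then lay nearer to that of all genes. No paired analysis was possible because 1 list was used and no test was made. The unknown depth, the missing strand and the absence of overlap (0 pairs of neighbouring intervals overlapped) limit what can be read: forms of a gene that share a start cannot be counted.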
